A study of Rattus norvegicus with 4 samples.

Results

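The genes described are 9 members of the machinery of programmed cell death, the BCL2 family members Bax, Bok, Bcl2, Bcl2l1, Bcl2l2, Mcl1 and Bcl2l11 and the caspases Casp1 and Casp2. Their transcripts were read in testis RNA of Sprague Dawley rats, an outbred strain, on Affymetrix rat U34 arrays of set A. The members are all probe sets whose platform annotation names exactly 1 gene from this list. That rule found 20 of the 8799 probe sets on the array, and they stand for 7 of the 9 genes, out of 4736 genes with such a probe set. Bax has 3 probe sets on the array, but each is annotated with a second gene as well, so no value is given for it. No probe set is annotated to Mcl1. Bcl2l1 and Bcl2l11 have 4 probe sets each, Bcl2, Casp1 and Casp2 have 3 each, Bok has 2 and Bcl2l2 has 1.

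Control rats received a sheep immunoglobulin and treated rats an antibody against rat follicle-stimulating hormone (FSH), raised in sheep, in both cases for 4 days. Each group had 2 RNA samples, each hybridised to 1 array, and the source names in the labels set the groups. Antibody replicate 2 is titled with postnatal day 4 instead of a treatment. Ages disagree: the series design starts injections on day 14, the treatment protocol starts them on day 18 and collects tissue on day 22, and the source names give day 18. The extraction protocol speaks of pools of about 20 ovaries per RNA sample, whereas each source name gives the testis of 1 numbered rat. How many animals an array stands for is therefore not settled. The p-values set each change against the spread between RNA samples, not between a known number of animals.

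BCL2 family proteins decide whether the outer mitochondrial membrane is opened. Bax and Bok are members that can open it, Bcl2, Bcl2l1 (BCL-X), Bcl2l2 (BCL-W) and Mcl1 keep it closed, and Bcl2l11 (BIM) belongs to the BH3-only proteins, which bind and neutralise the survival members. Caspases are proteases: Casp2 is an initiator linked to cell stress, and Casp1 matures the cytokines of the interleukin-1 family and is best known from macrophages. In the immature testis FSH acts on Sertoli cells, which support the germ cells, and germ cell death is a normal part of the first spermatogenic wave. Bcl2l2 is needed for spermatogenesis in mice, and Bok was first described as an ovarian member of the family.

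The values are linear intensities, 1 per probe set. They were analysed as log2(intensity + 16), a scale that understates the change of dim probe sets, and 5252 probe sets bright enough on average over the 4 arrays were tested with limma. A log2 change is the antibody mean minus the control mean ± SE. Its SE, interval and p-value draw on the spread of other probe sets of similar brightness as well as on its own. Adjusted p-values are Benjamini-Hochberg values over all 5252. Intensities of different probe sets depend on their probes, so levels are not compared between genes. In whole tissue, fewer cells of a type and less RNA per cell cannot be told apart.

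The 4 arrays had similar overall signal, with median intensities from 36.5 to 40.4. They differed in some germ cell genes within each treatment. Ldhc, a lactate dehydrogenase made by germ cells, read 41.6 and 333.6 on control replicates 1 and 2 and 143.6 and 41.3 on antibody replicates 1 and 2. Summed over 16 germ cell markers, the control arrays read 2022.6 and 3156 and the antibody arrays 2460.3 and 1742.6, so control replicate 2 and antibody replicate 1 stood higher. None of the 15 tested germ cell probe sets had an unadjusted p under 0.05 by limma, and the smallest were those of the testis histone H2bc1 (−0.57 ± 0.31), the germ cell helicase Ddx4 (−0.34 ± 0.19) and the sperm surface protein Adam2 (0.46 ± 0.26). Sycp1, a synaptonemal complex protein of meiotic cells, gave −0.15 ± 0.22. Among 9 oocyte and ovary markers, Gdf9 and Bmp15 have no single-gene probe set. The zona pellucida genes Zp1 and Zp2 read 37.5 to 69.9 and 84.5 to 103.8, and Zp3 and Cyp19a1 (aromatase) 2.8 to 4.7 and 2.9 to 10.2. Detection calls were not used, so whether such values lie above background is unknown.

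Markers of the somatic cells had log2 changes in both directions. Of 17 tested Sertoli cell probe sets, 0 passed the adjusted threshold by limma. At an unadjusted p under 0.05, which 8.11% of all tested probe sets reached, 3 were higher and 2 lower. The higher ones were of the anti-Müllerian hormone gene Amh (0.52 ± 0.16) and the protease gene Ctsl (0.67 ± 0.17 and 0.56 ± 0.16). The lower ones were of the inhibin subunit gene Inha (−0.90 ± 0.19) and of Shbg, which encodes androgen-binding protein (−0.66 ± 0.16). The other tested Inha probe set gave −0.49 ± 0.24. Of 11 tested Leydig cell probe sets, 1 of Star, the mitochondrial cholesterol carrier, fell (−1.49 ± 0.23, adjusted p = 0.0418 by limma). At an unadjusted p under 0.05 there were 5 more, the other of Star (−1.38 ± 0.25), both of the ferredoxin gene Fdx1 (−0.93 ± 0.19 and −0.64 ± 0.22), and 1 each of Cyp11a1 (0.52 ± 0.21) and the luteinizing hormone receptor gene Lhcgr (0.46 ± 0.18). The other tested Lhcgr probe sets gave 0.24 ± 0.21 and −0.22 ± 0.20. The part of these cells in the values of the cell death genes was not tested.

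The question for these genes is whether 4 days of FSH suppression changed the transcripts of cell death regulators. No member passed the test. Of the 20 member probe sets, 12 were bright enough to be tested, at least 1 for each of the 7 genes. Of these 12, 0 had an adjusted p under 0.05 by limma and 0 an unadjusted p under 0.05, where over all 5252 tested probe sets 0.267% and 8.11% did. The smallest adjusted p of a member was 0.634. The log2 changes ran from −0.39 for 1 Casp2 probe set to 0.40 for Casp1. The 95% intervals, each for a single probe set, together reached from −0.80 to 0.84. A log2 change of 1 in size on this scale thus lay outside the interval of each tested member probe set. A log2 change of 1 in the plain intensity is smaller on this scale, most so for dim probe sets. Such a change may therefore lie inside the interval of a dim member.

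**Figure D1:**
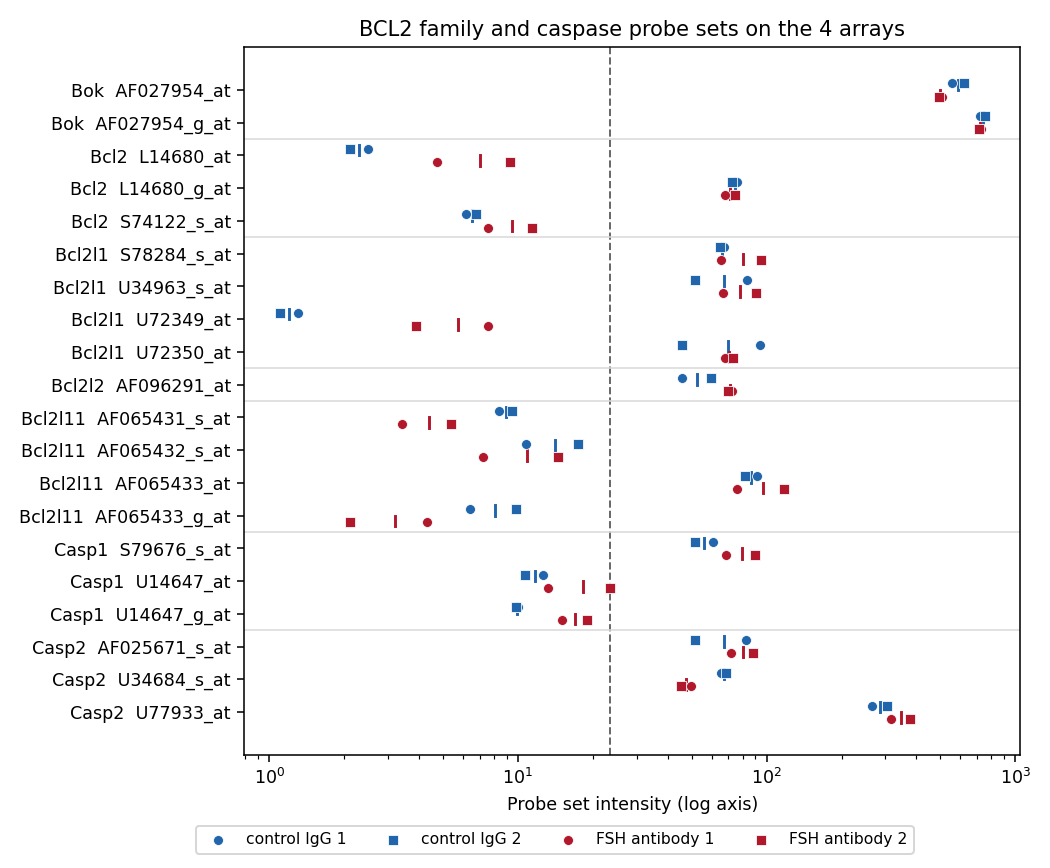
Intensity of each of the 20 member probe sets (log axis) on the 4 arrays, control IgG in blue and FSH antibody in red, circles for replicate 1 and squares for replicate 2, with a vertical tick at each group mean. The dashed line marks the intensity of 23.4 that corresponds to the filter level, and the 8 probe sets with group means left of it were not tested.

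The groups did not overlap for 5 of the 12 tested member probe sets, a share of 41.7% beside 37.4% of all tested probe sets. With both antibody arrays above both control arrays there were 3 of them (21.9% of all tested), of Bcl2l2, Casp1 and Casp2. With both antibody arrays below there were 2 (15.5% of all tested), of Bok and Casp2. A higher mean after the antibody was found for 8 of the 12, or 66.7%, beside 55.3% of all tested probe sets. With the brightest tested probe set of each gene, the median log2 change of the 7 genes was 0.22, beside 0.03 over 3169 genes. That median rested on single arrays: it was 0.04 without control replicate 2, 0.03 without antibody replicate 2 and 0.38 without antibody replicate 1.

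**Figure D2:**
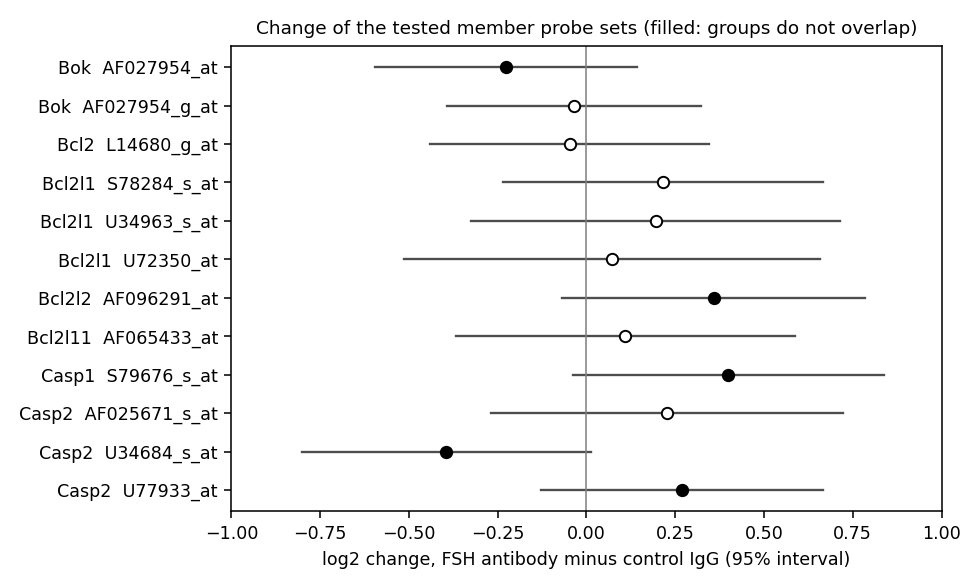
Log2 change (antibody minus control) of the 12 tested member probe sets with its 95% interval from limma; filled points mark probe sets whose groups do not overlap. Every interval spans 0, and the points lie between −0.39 and 0.40.

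Among the members that open the mitochondrial membrane only Bok has values. Its probe set AF027954_at was at 555.7 and 621.3 in the controls and at 505.7 and 493.6 after the antibody, with both antibody arrays below both control arrays. The means were 588.5 ± 46.4 and 499.6 ± 8.56 (SD, n = 2), and the log2 change was −0.23 ± 0.16 (adjusted p = 0.801 by limma). The other Bok probe set, AF027954_g_at, is named for the same sequence and read 723.6 and 753.5 in the controls against 726.7 and 712.9 after the antibody. There the groups overlapped and the log2 change was −0.04 ± 0.16 (95% interval −0.39 to 0.32). Bok transcript was thus read at nearly the same level on all 4 arrays by 1 probe set and slightly lower after the antibody by the other.

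Among the survival members, Bcl2l2 differed most. Its single probe set AF096291_at read 45.5 and 59.6 in the controls and 72.6 and 70.2 after the antibody. The antibody arrays lay close together and above both control arrays, which were further apart. The log2 change was 0.36 ± 0.19, a 1.28-fold higher level on that scale (95% interval 0.954 to 1.72), and it did not pass (limma, unadjusted p = 0.0904, adjusted p = 0.683). Leaving out 1 array gave log2 changes from 0.21 to 0.51.

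Bcl2, the founding survival member, was flat on its tested probe set. L14680_g_at read 76.1 and 72.5 in the control group and 68.2 and 74.7 in the antibody group, a log2 change of −0.05 ± 0.17 (95% interval −0.44 to 0.35, adjusted p = 0.969 by limma). Its other probe sets were too dim to be tested. L14680_at, named for the same sequence, read 2.5 and 2.1 in the controls and 4.7 and 9.3 after the antibody, and S74122_s_at read 6.2 and 6.8 against 7.6 and 11.4. Both dim probe sets had higher values after the antibody on both arrays, which the brighter one did not show.

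On each of its 3 tested probe sets Bcl2l1, the BCL-X gene, had a wider gap between the arrays of 1 group than between the group means. S78284_s_at read 67.1 and 64.8 in the controls and 65.6 and 95 after the antibody. Only antibody replicate 2 stood apart there, and the log2 change was 0.22 ± 0.20 (adjusted p = 0.851 by limma), or −0.01 without that array. U34963_s_at read 83.2 and 51.5 in the controls and 66.5 and 90.3 after the antibody, and U72350_at read 94.4 and 45.8 against 68.3 and 73.4. On both probe sets control replicate 2 was the lowest array and the groups overlapped. Their log2 changes were 0.19 ± 0.23 and 0.07 ± 0.26, and without control replicate 2 they turned to −0.08 and −0.35. The fourth probe set, U72349_at, was near the bottom of the scale at 1.3 and 1.1 in the controls and 7.6 and 3.9 after the antibody, and was not tested. There both antibody arrays lay above both control arrays.

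Bcl2l11, the BH3-only member, is covered by 4 probe sets of which 1 was tested. AF065433_at read 91.4 and 81.7 in the controls and 75.7 and 117.2 after the antibody. The antibody arrays lay on either side of the controls, and the log2 change was 0.11 ± 0.21 (95% interval −0.37 to 0.59, adjusted p = 0.933 by limma). Without antibody replicate 2 it was −0.16. The dim probe sets had lower means after the antibody. AF065431_s_at read 8.4 and 9.5 in the controls against 3.4 and 5.4 after the antibody, AF065433_g_at 6.4 and 9.8 against 4.3 and 2.1, and AF065432_s_at 10.8 and 17.4 against 7.2 and 14.5. The groups did not overlap on AF065431_s_at and AF065433_g_at and overlapped on AF065432_s_at. Because AF065433_at and AF065433_g_at are named for the same sequence and differ in level and in direction, these probe sets give no single answer for the gene.

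Casp1, the interleukin-1 converting protease, had higher values after the antibody on each of its 3 probe sets, and the groups overlapped on none of them. Only 1 of the 3 was bright enough to be tested. Over all tested probe sets 21.9% had both antibody arrays above both control arrays. The tested probe set S79676_s_at read 60.6 and 51.3 in the controls and 68.7 and 89.9 after the antibody. Its log2 change of 0.40 ± 0.19 was the highest among the tested members, a 1.32-fold higher level on that scale (95% interval 0.974 to 1.79), and did not pass (limma, unadjusted p = 0.0689, adjusted p = 0.641). Leaving out antibody replicate 1 gave 0.56 and leaving out antibody replicate 2 gave 0.24. Below the filter, U14647_at read 12.6 and 10.7 in the controls and 13.2 and 23.4 after the antibody, and U14647_g_at, named for the same sequence, read 10 and 9.8 against 15 and 18.9. Antibody replicate 2 was the highest array on all 3 probe sets.

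Leukocyte markers, measured because macrophages are known to express Casp1, had in part the same order over the arrays. Summed over 12 of them, the control arrays read 477.7 and 444.5 and the antibody arrays 474.2 and 550.1, so control replicate 2 was lowest and antibody replicate 2 highest, as for S79676_s_at, while control replicate 1 and antibody replicate 1 were level. Of the 10 tested probe sets of 7 marker genes, 0 passed the adjusted threshold by limma, 7 had a higher mean after the antibody and 3 a lower one. Cd14, a lipopolysaccharide receptor of macrophages, gave 0.39 ± 0.19 and 0.30 ± 0.23. Cd74, the invariant chain of antigen-presenting cells, gave 0.38 ± 0.22 and 0.46 ± 0.35. Lyz2, the macrophage lysozyme, gave 0.60 ± 0.22 (adjusted p = 0.534 by limma), and C1qb, a complement subunit made by macrophages, gave −0.71 ± 0.23 (adjusted p = 0.489) on 1 probe set and 0.06 ± 0.26 on the other. Cd68 and Cd163 have no single-gene probe set. Ptprc, the pan-leukocyte antigen CD45, read 35.6 and 33.5 in the controls and 41.2 and 21.0 after the antibody on its tested probe set. Its log2 change was −0.14 ± 0.25. Cd4 gave −0.34 ± 0.21, with both antibody arrays below both control arrays, and the tested probe set of C1qc gave 0.02 ± 0.21. No leukocyte marker was listed at 0. Their part in the Casp1 values was not tested.

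Casp2, the stress-linked initiator caspase, gave opposite directions on its probe sets. U77933_at read 266.1 and 303.8 in the controls and 317.4 and 376.6 after the antibody, with both antibody arrays above both control arrays and a log2 change of 0.27 ± 0.18 (95% interval −0.13 to 0.67, adjusted p = 0.766 by limma). U34684_s_at read 65.5 and 68.7 in the controls and 49.4 and 45.1 after the antibody, with both antibody arrays below. Its log2 change of −0.39 ± 0.18 (95% interval −0.80 to 0.01) had the smallest p of any tested member, 0.0559 unadjusted and 0.634 adjusted by limma. Leaving out any 1 array kept it between −0.44 and −0.35. The remaining probe set, AF025671_s_at, read 82.7 and 51.7 in the controls and 71.9 and 88.2 after the antibody. There the groups overlapped, and its log2 change of 0.23 ± 0.22 was −0.04 without control replicate 2. The difference between the Casp2 probe sets was not tested, and the sources used here do not say which part of the transcript each one reads.

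**Figure D3:**
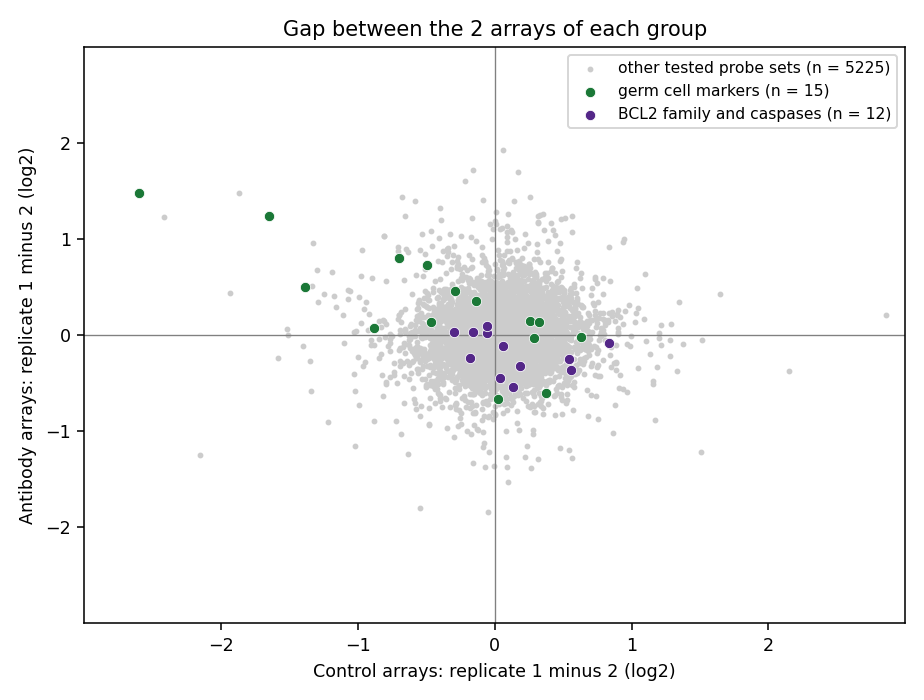
Difference between the arrays of 1 group on the log2 scale, replicate 1 minus replicate 2, in the controls (horizontal axis) and after the antibody (vertical axis), for the 12 tested member probe sets, 15 tested germ cell marker probe sets and 5225 other tested probe sets. Ldhc lies far to the upper left, at −2.60 and 1.48, while the members with the widest control gaps lie to the right, at up to 0.84.

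The change between groups and the gap between arrays of 1 group are unlike measures. A change is a difference between means of 2 arrays, which vary less than the single arrays of a gap. Their sizes are therefore given side by side and not weighed against each other. The median size of the log2 change over the 12 tested member probe sets was 0.22, and the median gap between the arrays of 1 group was 0.17 in either group. Over all tested probe sets the same medians were 0.16, 0.19 and 0.20. A control gap above 0.5 on the log2 scale was found for 3 of the 12, beside 10.4% of all tested probe sets. Those were U72350_at and U34963_s_at of Bcl2l1 and AF025671_s_at of Casp2, each with control replicate 1 above control replicate 2. Over all tested probe sets 6.21% had a gap of that size in that direction. The germ cell markers with the widest control gaps were the reverse: for Ldhc, Hspa2 and Spa17 control replicate 2 and antibody replicate 1 were the higher arrays. Of the 15 tested germ cell probe sets, 6 had a control gap above 0.5. Control replicate 2 was higher on 5 of them and control replicate 1 on 1, of Sycp1. An antibody gap of that size was found for 7 germ cell probe sets. Antibody replicate 1 was higher on 5 of them and antibody replicate 2 on 2, of Adam2 and Tnp1. Among the members an antibody gap above 0.5 was found for 1 of the 12, beside 11.7% of all tested probe sets. It was AF065433_at of Bcl2l11, with antibody replicate 2 higher. The part of germ cell content in the members' values was not tested.

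**Figure D4:**
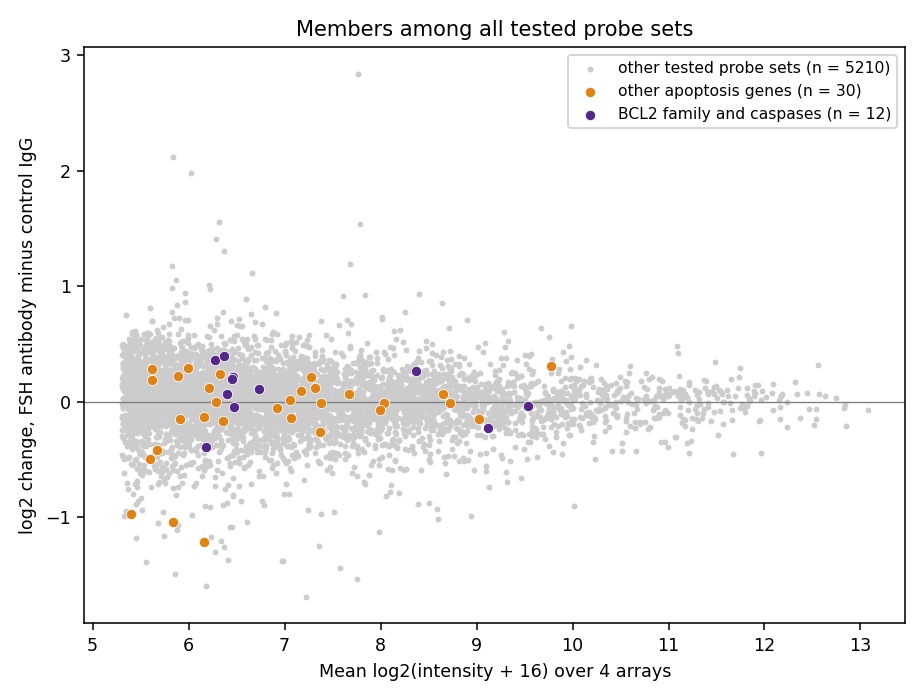
Log2 change (antibody minus control) against the mean log2(intensity + 16) over the 4 arrays for the 12 tested member probe sets, the 30 tested probe sets of other apoptosis genes and 5210 others. The members lie within −0.39 and 0.40, and the 3 lowest points among the other apoptosis genes are those of Gadd45a (1 of its probe sets) and Cdkn1a.

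Other genes of cell death were taken from 7 lists by role, 70 genes in all, of which 28 had a single-gene probe set and 20 were tested on 30 probe sets. None passed the adjusted threshold (0 of 30 by limma, smallest adjusted p 0.122), and 2 of the 30, both of Cdkn1a, had an unadjusted p under 0.05, a share of 6.67% beside 8.11% of all tested probe sets. The median log2 change of the 20 genes was 0.06, with 12 higher and 8 lower.

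Among other BCL2 family genes, 5 of 12 were tested and 0 of 6 probe sets had an unadjusted p under 0.05. Bad, a BH3-only protein controlled by phosphorylation, gave −0.01 ± 0.17 on its brighter probe set and −0.17 ± 0.20 on the other. Hrk, another BH3-only protein, read 46.5 and 39.0 in the control group and 20.4 and 37.3 in the antibody group on its tested probe set, a log2 change of −0.41 ± 0.24 (adjusted p = 0.714 by limma). Bak1, which like Bax opens the mitochondrial membrane, gave 0.12 ± 0.23. Bid, which links death receptors to mitochondria, gave −0.0026 ± 0.24, and Bnip3l, a mitochondrial BH3-like protein, gave −0.01 ± 0.19. For Bak1 and Bid control replicate 1 was the highest array and control replicate 2 the lowest, as for U72350_at of Bcl2l1.

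Of 8 other caspases, Casp6, an effector caspase, was the only one with a single-gene probe set. Its tested probe set read 58.2 and 57.7 in the controls and 69.9 and 73.2 after the antibody, with the antibody arrays above, a log2 change of 0.24 ± 0.18 (adjusted p = 0.801 by limma). Genes around Casp1 had higher means after the antibody on all 4 tested probe sets, beside 55.3% of all tested probe sets. Of the 4, 0 had an unadjusted p under 0.05 by limma, and the median log2 change was 0.25. The dim, untested probe sets of these genes had mean changes in both directions. Il18, a Casp1 substrate, gave 0.29 ± 0.21, Il1b, another, 0.19 ± 0.22, the decoy receptor Il1r2 0.29 ± 0.19 and Il1a 0.22 ± 0.21, with adjusted p from 0.747 to 0.880 by limma.

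Death receptors and ligands were mostly too dim to be tested. Fas and its ligand Faslg read 0.7 to 2.6 and 5.6 to 9.8 over the 4 arrays, and Tnf read 3.7 to 6.8. Tnfrsf11b, also untested, read 3.5 and 6.1 in the controls and 24.4 and 15.9 after the antibody. The dim probe sets of Tnfrsf1b went in opposite directions, 2.9 and 3 against 5.9 and 10.2, and 4.5 and 4.3 against 2.7 and 3.4. Tnfrsf1a, the main receptor for tumour necrosis factor, gave 0.02 ± 0.19. The neurotrophin receptor Ngfr gave 0.07 ± 0.17 on its brighter probe set and −0.27 ± 0.19 on the other. The caspase inhibitor Birc2 read 5.6 to 9.9 and was not tested. Among the genes that act at or after the mitochondrial step, Diablo, which relieves caspase inhibition, gave −0.15 ± 0.25. The flavoprotein Aifm1 gave −0.07 ± 0.17 and the mitochondrial channel Vdac1 −0.05 ± 0.17 on its brighter probe set. Parp1, a caspase substrate, gave 0.31 ± 0.17 on its brighter probe set and −0.01 ± 0.17 on the other (adjusted p = 0.701 and 0.993 by limma).

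Of the p53 pathway genes, Cdkn1a, the cyclin-dependent kinase inhibitor p21, had the smallest p-values. U24174_at read 55.3 and 78.5 in the control group and 22.4 and 25.5 in the antibody group. The log2 change was −1.04 ± 0.21 (limma, unadjusted p = 0.000783, adjusted p = 0.122). L41275cds_s_at read 45.0 and 41.3 against 12.1 and 16.2, a log2 change of −0.97 ± 0.22 (adjusted p = 0.150). On both probe sets the antibody arrays lay below the controls, and neither passed the adjusted threshold. Gadd45a, a growth arrest gene, had 4 tested probe sets at −1.21 ± 0.60, −0.14 ± 0.18, −0.13 ± 0.22 and 0.06 ± 0.20; the first of these read 35.7 and 214.4 on the control arrays. Ccng1, a cyclin induced by p53, gave 0.22 ± 0.17, and Mdm2, which degrades p53, gave 0.12 ± 0.18, 0.09 ± 0.17 and −0.50 ± 0.39 on its tested probe sets.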

How the data were processed

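The authors deposited linear intensities, one per probe set and array. Per the labels' protocols the arrays were run by the standard Affymetrix protocol; the software, scaling and background correction are not named. Each array's mean, trimmed by 2% of probe sets at either end, came to 125, so the arrays had been scaled alike, and they were not normalized again. Symbols from a platform annotation table were updated by Entrez identifier with RefSeq's GRCr8 gene table (7018 of 8799 probe sets with a single symbol, 308 with several, 1473 with none). The 59 control probe sets were not tested. Probe sets at or above the 40th percentile of the mean log2(intensity + 16) were fitted with limma 3.58.1 in R 4.3.3 (lmFit, then eBayes with trend), two-sided, with Benjamini-Hochberg adjustment over all 5252. The code was tested on simulated data. Members, lists and tests were chosen with earlier results of these data known. All members are named with every probe set. From the other lists, genes with an unadjusted p under 0.05 are named, or else the up to 3 tested genes with the smallest p, with some defining markers and, after their values were seen, further list genes. Alternatives were other normalizations, constants, filters and variance models, leaving out each array, and the replicate number as a block.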

Additional observations from a re-analysis of the deposited data

How the results depend on the processing

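No member probe set passed the adjusted threshold in any of the 13 alternatives for this count. Of 154 values of the 12 tested member probe sets under the alternatives, 148 kept their direction. The other 6, each with 1 array left out, were Casp2 AF025671_s_at (−0.0445 to 0.50), Bcl2l1 U34963_s_at (−0.0831 to 0.47), U72350_at (−0.35 to 0.49) and S78284_s_at (−0.0060 to 0.44), Bcl2 L14680_g_at (−0.10 to 0.0067) and Bcl2l11 AF065433_at (−0.16 to 0.38), as ranges over the arrays left out. The count of members at an unadjusted p under 0.05 went from 0 to 1 (Casp2 U34684_s_at) with quantile normalization, median centring, no intensity trend and no moderation. It was 4 of 20 with no filter (20%, beside 8.03% of all 8740 probe sets), and 0 to 1 with 1 array left out (Casp1 S79676_s_at without antibody replicate 1). The 4 were Bcl2l11 AF065431_s_at and AF065433_g_at, lower, and Bcl2 L14680_at and Bcl2l1 U72349_at, higher, with intensities of at most 9.8. Groups that do not overlap, a count whose alternatives were chosen after seeing the data, numbered 12 of 20 with no filter (60%, beside 39.8% of all probe sets) and 3 of 10 at the 60th percentile (30%, beside 35.6%). The members' median was 0.0294 to 0.38 with 1 array left out. Over all probe sets, where 14 passed, 0 did with quantile normalization, no filter or no moderation (420, 702 and 352 at an unadjusted p under 0.05 by limma or its fit without moderation), 4 with median centring and 0 to 154 with 1 array left out. Deviations from the group mean on arrays with the same replicate number had a correlation of 0.0039 over all tested probe sets. A single correlation cannot show whether the replicate number pairs the arrays for some genes. With the replicate block 39 probe sets passed and 0 members. Apart from the number of probe sets or arrays, the cause of these changes was not tested. With 4 arrays precision is low, and signal over background is unknown.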
